A study of Mus musculus with 4 samples.

Results

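The genes of 8 scavenger receptors and related proteins of macrophages, *Msr1*, *Marco*, *Cd36*, *Scarb1*, *Scarb2*, *Cd68*, *Stab1* and *Cd5l*, were followed by RNA sequencing of BMMs, macrophage-like cells grown from mouse bone marrow. They were picked by gene symbol from 23920 genes in the deposited table, though with earlier results of these data known. Their transcripts were summed per gene. All 8 reached 1 FPKM in at least 1 library, as did 10763 genes in all. FPKM is a fragment count scaled to transcript length and to library size, so levels of different genes can be set side by side.

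The study asked how STAT5 takes part in the block of osteoclast formation by IL-3, and its sequencing data hold 4 libraries, 1 for each condition. The first, called the cKO library below, was made from *Stat5* cKO cells that received M-CSF, RANKL and IL-3 together. The other 3 were made from *Stat5*fl/fl cells, of which 1 culture had all 3 cytokines (the IL-3 library), 1 had M-CSF and RANKL (the RANKL library) and 1 had M-CSF alone (the M-CSF library). Wherever a cytokine was given its dose was the same, 30 ng/mL of M-CSF, 100 ng/mL of RANKL and 1 ng/mL of IL-3. Culture lasted 24 h in each, and the labels give C57BL/6 mice aged 8 weeks, whereas the methods give a younger age for osteoclast cultures. By the methods, cells of all 4 libraries carry floxed alleles of *Stat5a* and *Stat5b*, whereas the labels call the *Stat5*fl/fl cells wild-type. The cKO cells also carry Mx1-Cre, a recombinase driven by an interferon-inducible promoter. Mx1-Cre is switched on with poly I:C and acts in many tissues, not in osteoclast precursors alone. The methods state that *Stat5*fl/fl littermates received poly I:C in the same way. With 1 library per condition there was no replicate check of any difference, and no p-value between conditions was computed.

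Scavenger receptors bind modified lipoproteins, dead cells, microbes and other polyanionic or lipid ligands and bring them into the cell. *Msr1* and *Marco* encode collagen-like trimers of class A. *Cd36*, *Scarb1* and *Scarb2* encode class B proteins with a large loop outside the cytosol, which take up oxidised lipoproteins and fatty acids, exchange cholesterol with high-density lipoprotein, and serve in the lysosomal membrane, in that order. *Cd68* encodes macrosialin, a heavily glycosylated protein of late endosomes and lysosomes, *Stab1* the multidomain receptor stabilin-1, and *Cd5l* a secreted macrophage protein with scavenger receptor cysteine-rich domains. RANKL directs M-CSF-dependent precursors towards osteoclasts, and IL-3 signals through a receptor that activates STAT5.

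The windows around the start sites of 4 of these genes are shown because *Cd36*, *Stab1* and *Marco* carried the largest differences in level and *Cd68* stayed nearly level. Each runs from 250 bases before the RefSeq start to 50 after it on GRCm38.p6, all on the minus strand and written 5′ to 3′. They cover chr5:17835847-17836146 for *Cd36*, chr14:31168592-31168891 for *Stab1*, chr1:120504975-120505274 for *Marco* and chr11:69666121-69666420 for *Cd68*. Capitals mark matches to GAGGAA (or TTCCTC on the other strand), a core motif of the myeloid factor PU.1, and to TGANTCA, the AP-1 motif.
Cd36: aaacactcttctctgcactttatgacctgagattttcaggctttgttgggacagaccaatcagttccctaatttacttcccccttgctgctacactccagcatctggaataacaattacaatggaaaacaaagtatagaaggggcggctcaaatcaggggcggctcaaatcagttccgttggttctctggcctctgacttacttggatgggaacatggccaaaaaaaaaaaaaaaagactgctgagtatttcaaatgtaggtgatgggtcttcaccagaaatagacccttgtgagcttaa
Stab1: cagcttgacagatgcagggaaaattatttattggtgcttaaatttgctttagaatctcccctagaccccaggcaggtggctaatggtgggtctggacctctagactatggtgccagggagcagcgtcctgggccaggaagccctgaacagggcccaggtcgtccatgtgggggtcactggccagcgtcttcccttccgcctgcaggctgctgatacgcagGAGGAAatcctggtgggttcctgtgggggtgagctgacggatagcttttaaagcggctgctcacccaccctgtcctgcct
Marco: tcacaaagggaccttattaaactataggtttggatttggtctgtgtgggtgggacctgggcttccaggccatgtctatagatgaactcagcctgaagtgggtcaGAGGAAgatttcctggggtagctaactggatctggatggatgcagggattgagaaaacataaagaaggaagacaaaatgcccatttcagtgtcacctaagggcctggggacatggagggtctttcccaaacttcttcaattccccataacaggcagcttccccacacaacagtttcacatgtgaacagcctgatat
Cd68: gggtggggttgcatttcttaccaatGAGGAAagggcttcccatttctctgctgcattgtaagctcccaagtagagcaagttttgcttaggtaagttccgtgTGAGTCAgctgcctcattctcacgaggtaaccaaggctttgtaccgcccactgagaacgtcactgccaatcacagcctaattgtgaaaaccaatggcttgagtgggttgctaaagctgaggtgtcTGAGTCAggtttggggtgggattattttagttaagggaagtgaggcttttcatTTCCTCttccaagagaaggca

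The table of start-site windows held 6 of the 8 genes, all but *Msr1* and *Scarb1*. On both strands, TTCNNNGAA, the motif bound by STAT dimers, was in 0 of these 6 windows and in 8.30% of 32851 windows of the same length. The PU.1 motif shares its last letters GAA with the STAT motif, so their matches can overlap. It was in 28.3% of all windows and in those of *Marco* (first base 146 upstream of the start), *Stab1* (30 upstream), *Cd5l* (66 upstream, other strand) and *Cd68* (225 upstream, and on the other strand within the transcript). TGANTCA was in 7.81% of all windows, and among these genes in *Cd68* alone, with TGAGTCA at 149 and 24 bases upstream. *Cd36* and *Scarb2* held none of the 3 motifs in this window. For *Cd36* the window lies at 1 of several start places, the one closest to the 3′ end of the gene, and its RefSeq start is upstream of the GENCODE start used for the transcripts below. The other start places were not searched. A match describes letters and not binding.

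The genotype labels were checked with *Stat5a*, at 0.17 FPKM in the cKO library against 12.0, 10.8 and 9.89 FPKM in the IL-3, RANKL and M-CSF libraries, and with *Stat5b*, at 0.19 FPKM against 8.86, 7.80 and 10.8 FPKM. The labels also give male mice, but *Xist* stood at 31.9 to 47.0 FPKM and 4 of 4 Y-linked genes were at 0 in all 4 libraries, so the labelled sex did not match in any of them. Depth estimated from steps in low values was 33.2 to 36.8 M fragments per library, and the intervals given below for ratios cover counting error only. All 9 of 9 macrophage markers passed the minimum of 1 FPKM. Osteoclast markers summed to 518 FPKM in the cKO library, against 141, 1277 and 45.9 FPKM in the IL-3, RANKL and M-CSF libraries, and *Calcr*, the calcitonin receptor gene of mature osteoclasts, was at 0 throughout. Single markers of adipocytes, stroma, basophils and mast cells, T cells, B cells, platelets and erythroid cells reached at most 1.61 FPKM, and those of endothelium, where stabilins and CD36 are also found, at most 3.75 FPKM.

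In every library *Cd68* had the highest level of the 8 genes, followed by *Msr1*, *Cd36*, *Stab1* and *Scarb1*, and *Cd5l* had the lowest. *Scarb2* came before *Marco* except in the IL-3 library, where *Marco* stood at 30.6 and *Scarb2* at 29.7 FPKM, a difference within counting error. All 8 genes had their highest level in the M-CSF library, though for *Marco* the IL-3 library was within counting error of it. The share of all genes tested that were highest there was not counted, so this is not shown to be particular to these genes. The genes fell into a variable and a flat set. Between the highest and the lowest library, *Marco* differed 5.42-fold, *Cd36* 5.08-fold, *Stab1* 4.83-fold and *Msr1* 4.10-fold, and *Cd5l* 3.09-fold at a level near the minimum. The ratio was 1.58 for *Scarb1*, 1.40 for *Scarb2* and 1.34 for *Cd68*. The make-up of the summed level differed between libraries too. *Msr1*, *Cd36* and *Stab1* together made 45.2% of the sum of the 8 genes in the cKO library, 57.5% in the IL-3 library, 32.4% in the RANKL library and 62.7% in the M-CSF library. *Cd68* alone made 49.6% in the cKO library, 38.0% in the IL-3 library, 60.9% in the RANKL library and 33.0% in the M-CSF library.

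**Figure D1:**
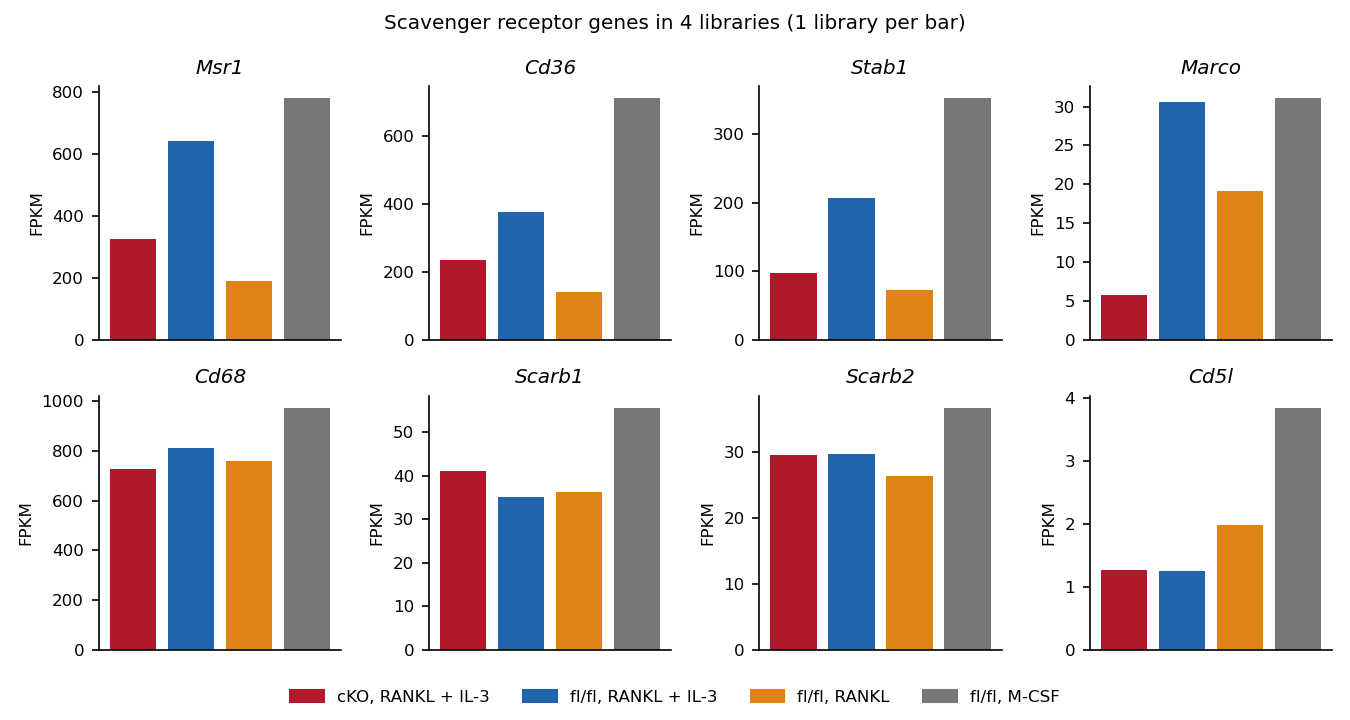
Level in FPKM (vertical axis, from 0, with its own scale in each panel) of the 8 genes, with 1 bar per library. From left to right the bars are the cKO, IL-3, RANKL and M-CSF libraries. *Msr1*, *Cd36* and *Stab1* were lowest in the RANKL library, *Marco* was lowest in the cKO library at 5.74 FPKM, and *Cd68* and *Scarb2* varied by less than 1.5-fold.

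*Msr1* (gene ID 20288, chr8:39543232-39642750, minus strand, GRCm38) encodes the macrophage scavenger receptor of class A. Its level was 327 FPKM in the cKO library, 643 FPKM in the IL-3 library, 191 FPKM in the RANKL library and 781 FPKM in the M-CSF library. The RANKL library was thus lowest, and the cKO library lay between it and the IL-3 library. With RANKL the level was 4.10-fold lower than with M-CSF (log2 ratio -2.03 ± 0.02, an approximate 95% counting interval on the log2(FPKM + 1) scale). With IL-3 added it was 3.37-fold higher than with RANKL alone, a log2 ratio of 1.75. Of the 590 FPKM between the RANKL and M-CSF libraries, the cKO library lay 23.2% and the IL-3 library 76.7% of the way up from RANKL. In cKO cells the level was 1.96-fold lower than in the IL-3 library, a log2 ratio of -0.97 that misses the 2-fold threshold narrowly.

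The gene has a type I protein of 458 residues, which ends in a cysteine-rich domain, and a shorter type II protein of 354 residues without it. The type II transcript was estimated at 197 FPKM in the cKO library, 455 in the IL-3 library, 103.7 in the RANKL library and 514 FPKM in the M-CSF library. Type I was at 130.4 FPKM in the cKO library, 189 in the IL-3 library, 86.9 in the RANKL library and 267 FPKM in the M-CSF library. Both transcripts were lowest with RANKL, and type II was the more abundant in all 4 libraries. Its share was 60.2% in the cKO library, 70.7% in the IL-3 library, 54.4% in the RANKL library and 65.9% in the M-CSF library. The split between transcripts is an estimate of Cufflinks for which the table holds no error.

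*Marco* (gene ID 17167, chr1:120474538-120505024, minus strand) encodes the class A receptor with a collagenous structure that binds bacteria and particles, best known from alveolar and marginal-zone macrophages. It was at 5.74 FPKM in the cKO library, 30.6 FPKM in the IL-3 library, 19.1 FPKM in the RANKL library and 31.1 FPKM in the M-CSF library, and the lowest of these, the cKO value, came from about 406 fragments. The cKO library was lowest by far, and the IL-3 and M-CSF libraries were within counting error of each other (log2 ratio -0.02 ± 0.09). In cKO cells *Marco* was 5.33-fold lower than in the IL-3 library (log2 ratio -2.23 ± 0.13), at rank 77 from the lowest of 10763 genes. Against the RANKL library, which had no IL-3, the cKO library was 3.33-fold lower (-1.58 ± 0.14), at rank 8. RANKL against M-CSF gave -0.67 ± 0.10 and IL-3 added to RANKL 0.65 ± 0.10, both within 2-fold.

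*Marco* was 1 of 8 genes, or 0.0743% of those tested, that were at least 2-fold lower in the cKO library than in each of the 3 *Stat5*fl/fl libraries. The others were *Stat5a*, *Stat5b*, *Chst10*, *Fblim1*, *Glul*, *Padi4* and *Plod1*. The rule for this set was written from the pattern of *Marco*, so the place of *Marco* in it was fixed beforehand. The share describes how many genes meet the rule and is no test of *Marco*. Among 10 tested genes within 1 Mb of *Marco*, a reach chosen after the values were seen, 1 was at least 2-fold lower in cKO, *Tmem37*, and 0 were higher, where 4.28% of all genes were lower and 2.11% higher. The median log2 ratio of these neighbours was 0.11. *Tmem37* stood at 6.67 FPKM in the cKO library, 21.7 in the IL-3 library, 6.56 in the RANKL library and 53.7 FPKM in the M-CSF library, so it was as low with RANKL alone as in cKO cells, unlike *Marco*. Whether the *Marco* value belongs to the genotype or to this mouse or culture cannot be told apart with 1 cKO library.

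*Cd36* (gene ID 12491, chr5:17781690-17888959, minus strand) encodes the class B receptor for oxidised lipoprotein, long-chain fatty acids and thrombospondin. Its level was 236 FPKM in the cKO library, 376 FPKM in the IL-3 library, 139.9 FPKM in the RANKL library and 711 FPKM in the M-CSF library. With RANKL it was 5.08-fold lower than with M-CSF (log2 ratio -2.34 ± 0.03, rank 92 from the lowest), the largest such difference among the 8 genes. Adding IL-3 gave a 2.69-fold higher level than RANKL alone (1.42 ± 0.03). Of the 571 FPKM between the RANKL and M-CSF libraries, the cKO library lay 16.8% and the IL-3 library 41.3% of the way up from RANKL. The IL-3 library remained 1.89-fold below M-CSF, a log2 ratio of -0.92. In cKO cells the level was 1.59-fold lower than in the IL-3 library, a log2 ratio of -0.67.

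All 5 *Cd36* transcripts in the table encode the same 472 residues, and their start sites fall into 3 places. Transcripts from the place closest to the 3′ end of the gene were estimated at 128.4 FPKM in the cKO library, 201 in the IL-3 library, 88.2 in the RANKL library and 368 FPKM in the M-CSF library. Those starting 14.1 kb farther upstream had 107.4 FPKM in the cKO library, 173 in the IL-3 library, 51.2 in the RANKL library and 342 FPKM in the M-CSF library. Both were lowest with RANKL, and the farther place made 45.5% of the gene in the cKO library, 46.2% in the IL-3 library, 36.6% in the RANKL library and 48.1% in the M-CSF library. A start site 53.1 kb upstream gave at most 1.45 FPKM in any library.

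**Figure D2:**
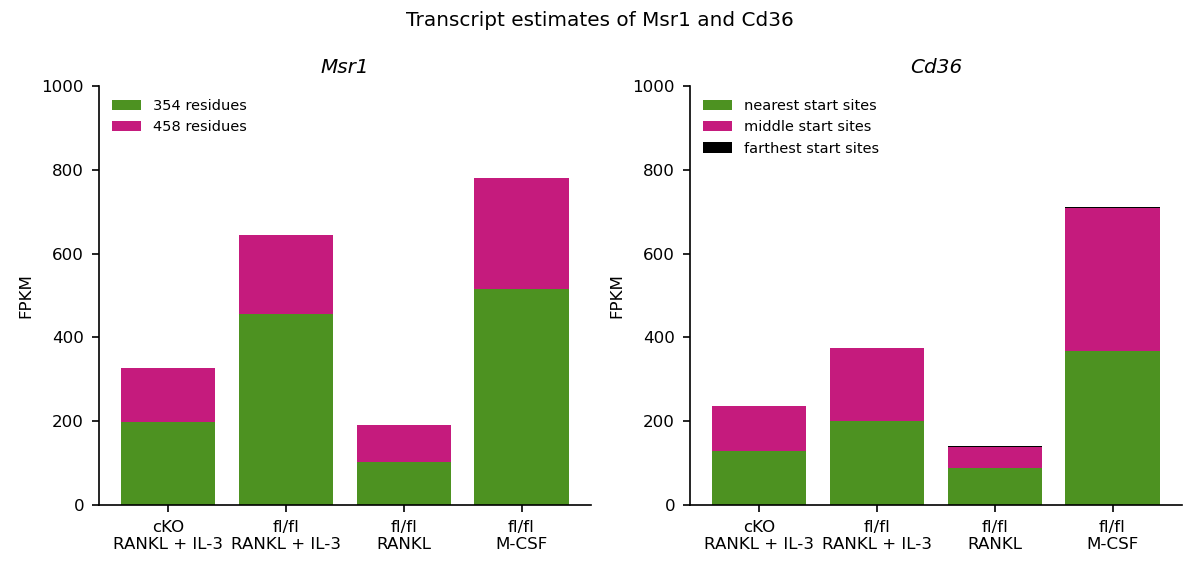
Estimated transcript levels of *Msr1* (left, by the length of the encoded protein) and *Cd36* (right, by start site), stacked in FPKM from 0. From left to right the bars are the cKO, IL-3, RANKL and M-CSF libraries. Both *Msr1* transcripts and both main *Cd36* start sites were lowest in the RANKL library, and the type II share of *Msr1* was 70.7% with IL-3 and 54.4% with RANKL alone.

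The other class B genes varied little. *Scarb1* (gene ID 20778, chr5:125277087-125341094, minus strand), the receptor for high-density lipoprotein, was at 41.0 FPKM in the cKO library, 35.2 FPKM in the IL-3 library, 36.2 FPKM in the RANKL library and 55.5 FPKM in the M-CSF library. Adding IL-3 to RANKL gave a log2 ratio of -0.04 ± 0.07, an interval that includes 0. In cKO cells it was 1.17-fold higher than in the IL-3 library. *Scarb2* (gene ID 12492, chr5:92441311-92505657, minus strand), which encodes the lysosomal membrane protein LIMP-2, was at 29.6 FPKM in the cKO library, 29.7 FPKM in the IL-3 library, 26.3 FPKM in the RANKL library and 36.7 FPKM in the M-CSF library. The cKO and IL-3 libraries did not differ beyond counting error for this gene (-0.01 ± 0.05). Most *Scarb1* came from the transcript of 509 residues, at 85.9% to 92.2% of the gene.

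*Stab1* (gene ID 192187, chr14:31139017-31168651, minus strand) encodes a scavenger receptor of macrophages and sinusoidal endothelium that takes up acetylated lipoprotein and the matrix protein SPARC. Its level was 98.0 FPKM in the cKO library, 207 FPKM in the IL-3 library, 73.0 FPKM in the RANKL library and 353 FPKM in the M-CSF library. The order of libraries was that of *Msr1* and *Cd36*. With RANKL it was 4.83-fold lower than with M-CSF (log2 ratio -2.26 ± 0.02, rank 106 from the lowest). Adding IL-3 gave a 2.84-fold higher level (1.49 ± 0.02), and in cKO cells the level was 2.11-fold lower than in the IL-3 library (-1.07 ± 0.02). Of the 280 FPKM between the RANKL and M-CSF libraries, the cKO library lay 8.94% and the IL-3 library 47.9% of the way up from RANKL. Both ends of this span are *Stat5*fl/fl libraries. Without a cKO library that lacks IL-3, a response of cKO cells to IL-3 cannot be read from it.

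*Cd68* (gene ID 12514, chr11:69664213-69666170, minus strand), often used as a general macrophage marker, was at 726 FPKM in the cKO library, 809.7 FPKM in the IL-3 library, 757 FPKM in the RANKL library and 972 FPKM in the M-CSF library. Each of the 5 comparisons made gave a log2 ratio between -0.36 and 0.10. *Cd5l* (gene ID 11801, chr3:87357881-87371074, plus strand), which inhibits apoptosis of macrophages and is made mainly in tissue macrophages, was at 1.27 FPKM in the cKO library, 1.25 FPKM in the IL-3 library, 1.99 FPKM in the RANKL library and 3.85 FPKM in the M-CSF library, each from about 93 to 260 fragments. Its cKO and IL-3 levels were within counting error of each other (log2 ratio 0.01 ± 0.23).

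Counted at 2-fold on the log2(FPKM + 1) scale, RANKL against M-CSF in *Stat5*fl/fl cells gave 3 of the 8 genes lower (*Msr1*, *Cd36* and *Stab1*) and 0 higher. Among all genes tested 6.88% were lower and 5.44% higher. The median log2 ratio was -0.69 over the 8 genes and 0.14 over all genes. When IL-3 was added to RANKL, the same 3 genes were higher and 0 lower, where 6.11% of all genes were higher and 3.47% lower. The medians were 0.41 for the 8 genes and -0.15 for all genes. This comparison shares the RANKL library with the one before it, so a low value in that library would enter both.

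Between the cKO and IL-3 libraries, which differ in genotype, 2 of the 8 genes were lower (*Marco* and *Stab1*) and 0 higher, where 4.28% of all genes were lower and 2.11% higher. The median log2 ratio was -0.41 over the 8 genes and 0.13 over all genes. The cKO comparison shares the IL-3 library with that of IL-3 added to RANKL, so a high value there would enter both. *Msr1*, at -0.97, was just outside the threshold and *Stab1*, at -1.07, just inside it. When libraries were scaled to a common median the ratio of *Msr1* was -1.10, with 3 genes lower. *Scarb2* (-0.01), *Cd5l* (0.01) and *Cd68* (-0.16) were nearest to equal.

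The IL-3 library was compared with M-CSF alone to see how far each gene stood from cells without RANKL. Here 1 of the 8 genes was lower, *Cd5l* with a log2 ratio of -1.11 ± 0.21, and 0 were higher, where 1.42% of all genes were lower and 2.5% higher. *Cd36*, at -0.92, and *Stab1*, at -0.77, were the next lowest, and *Marco* was level. The median was -0.47 over the 8 genes and -0.00 over all genes. With the cKO library set against the RANKL library, which differ in genotype and in IL-3 at once, 1 gene was lower (*Marco*) and 0 higher, where 0.353% of all genes were lower and 0.929% higher. *Msr1* (0.78), *Cd36* (0.75) and *Stab1* (0.42) were on the higher side but within 2-fold, and the medians were 0.17 for the 8 genes and -0.02 for all genes.

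**Figure D3:**
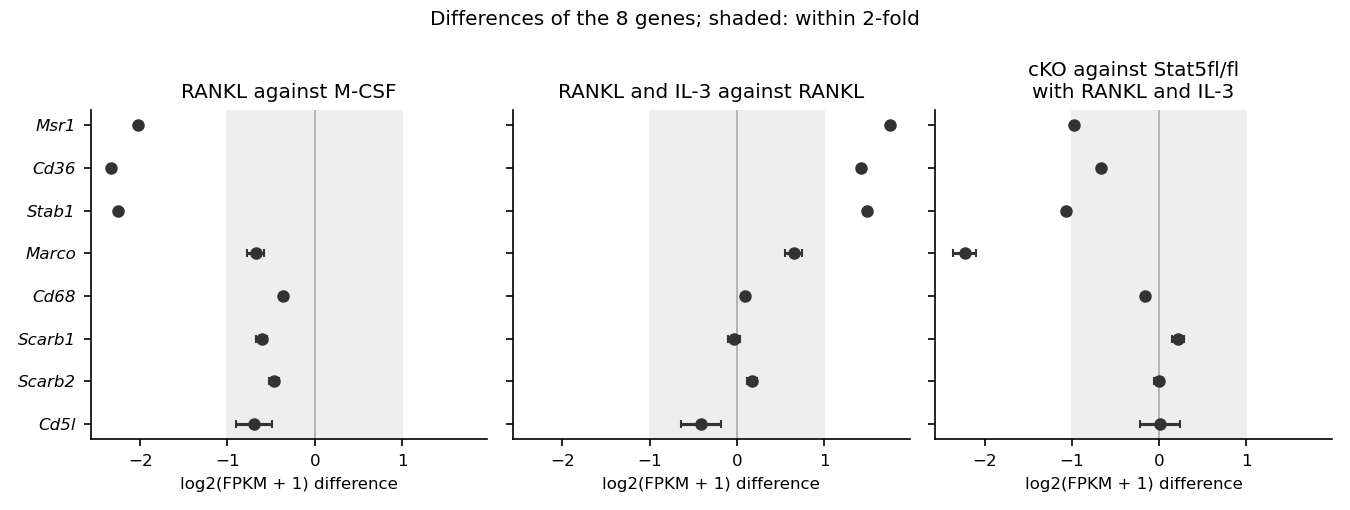
Difference in log2(FPKM + 1) of the 8 genes (rows) in 3 comparisons (panels), as the first condition named minus the second. Bars are approximate 95% counting intervals, hidden where narrower than the point, and the shaded band is within 2-fold. *Msr1*, *Cd36* and *Stab1* lay below the band with RANKL and above it when IL-3 was added, and *Marco* (-2.23) lay farthest below it in cKO.

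The summed markers of macrophages and of neutrophils had the same order of libraries as *Msr1*, *Cd36* and *Stab1*. So did those of T cells and of erythroid cells, whose sums were at most 0.89 and 0.27 FPKM. Singly, 6 of 9 macrophage markers (not *Itgam*, *C1qb* and *Cd14*) and 3 of 7 neutrophil markers (not *Elane*, *Mpo*, *Ltf* and *Ngp*) had this order. The share of all genes tested with this order was not counted, so these counts have no background to be read against. The 9 of 9 macrophage markers summed to 12143 FPKM in the cKO library, 17551 in the IL-3 library, 7788 in the RANKL library and 22530 FPKM in the M-CSF library. Without *Lyz2*, the lysozyme gene that makes up most of this sum, the other 8 summed to 902 FPKM in the cKO library, 1680 in the IL-3 library, 612 in the RANKL library and 2644 FPKM in the M-CSF library. The 7 of 7 neutrophil markers, 0 of which were at 0, summed to 766 FPKM in the cKO library, 1077 in the IL-3 library, 733 in the RANKL library and 1285 FPKM in the M-CSF library. In bulk RNA, fewer macrophages and less RNA per macrophage cannot be told apart, and the part of any of these cell types in the values of these receptors was not tested. Dendritic cell markers, of which 3 of 7 reached 1 FPKM, had another order, with sums of 106 FPKM in the cKO library and 537 in the IL-3 library, a lower sum than either in the RANKL library and 139.6 FPKM in the M-CSF library. Nearly all of this was *Cd74* and *Itgax*, at 434 and 99.7 FPKM in the IL-3 library. The remaining markers, among them *Flt3* and *Zbtb46*, reached at most 1.06 FPKM in any library.

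For each of the 7 genes that reached 5 FPKM, the 3 genes nearest in profile were found among 8184 others, by the distance between centred log2(FPKM + 1) values over the 4 libraries. Nearest to *Cd36* was *Plau*, the urokinase gene, at a distance of 0.07, with 177 FPKM in the cKO library, 301 in the IL-3 library, 109.5 in the RANKL library and 564 FPKM in the M-CSF library. The genes nearest to *Msr1* were *Ampd3* (0.10), *Arl11* (0.13) and *Ptgir* (0.13), and nearest to *Stab1* were *Rnf150* (0.05), *Sesn1* (0.17) and *Pald1* (0.18). *Marco* had no close neighbour. Its nearest genes were *Chil3* at 0.48, which encodes the macrophage chitinase-like protein Ym1, *Padi4* at 0.58 and *Gstm2* at 0.78. *Chil3* stood at 19.8 FPKM in the cKO library, 67.7 in the IL-3 library, 39.2 in the RANKL library and 69.8 FPKM in the M-CSF library. Flat genes have many flat neighbours, as shown by *Fam134c* at 0.01 from *Scarb2*, *Hes6* at 0.03 from *Cd68* and *Tcf4* at 0.03 from *Scarb1*. Among the 8 genes themselves *Cd36* and *Stab1* were 0.30 apart, *Msr1* was 0.45 from *Cd36* and 0.46 from *Stab1*, *Cd68* was 0.16 from *Scarb2*, and *Marco* was at least 1.52 from each of the other 6. Other genes lay closer to each receptor than these fellow receptors did. *Stab1* ranked 21 and *Msr1* ranked 64 among the genes nearest to *Cd36*. Among those nearest to *Msr1*, *Stab1* ranked 101, and among those nearest to *Cd68*, *Scarb2* ranked 248. With 4 libraries such distances describe a shape over 4 points and no more.

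Other scavenger receptors were taken from a list of 25 genes, of which 10 reached 1 FPKM. With RANKL against M-CSF 5 of these 10 were lower (*Mrc1*, *Cd163*, *Cd14*, *Colec12* and *Lrp1*) and 0 higher, with a median log2 ratio of -0.87. Among all genes tested 6.88% were lower and 5.44% higher. With IL-3 added 2 were higher, *Mrc1* and *Clec7a*, where 6.11% of all genes were higher, and the median was 0.30. In cKO cells these 2 were lower, where 4.28% of all genes were lower, and the median was -0.10. The comparisons with IL-3 added and in cKO share the IL-3 library, so a high value there would enter both. *Mrc1*, the mannose receptor gene, stood at 28.3 FPKM in the cKO library, 115 in the IL-3 library, 15.2 in the RANKL library and 80.5 FPKM in the M-CSF library, in which it differed from *Msr1*, *Cd36* and *Stab1* by standing highest with IL-3. *Clec7a*, the beta-glucan receptor gene, had 5.15 FPKM in the cKO library, 78.8 in the IL-3 library, 5.22 in the RANKL library and 9.33 FPKM in the M-CSF library. *Cd163*, the haemoglobin scavenger receptor gene, had at most 0.95 FPKM in the cKO, IL-3 and RANKL libraries and 4.25 FPKM in the M-CSF library. *Stab2*, the endothelial relative of *Stab1*, reached at most 0.01 FPKM, and *Scara5*, *Cd163l1* and *Asgr1* were at 0 in all 4 libraries.

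**Figure D4:**
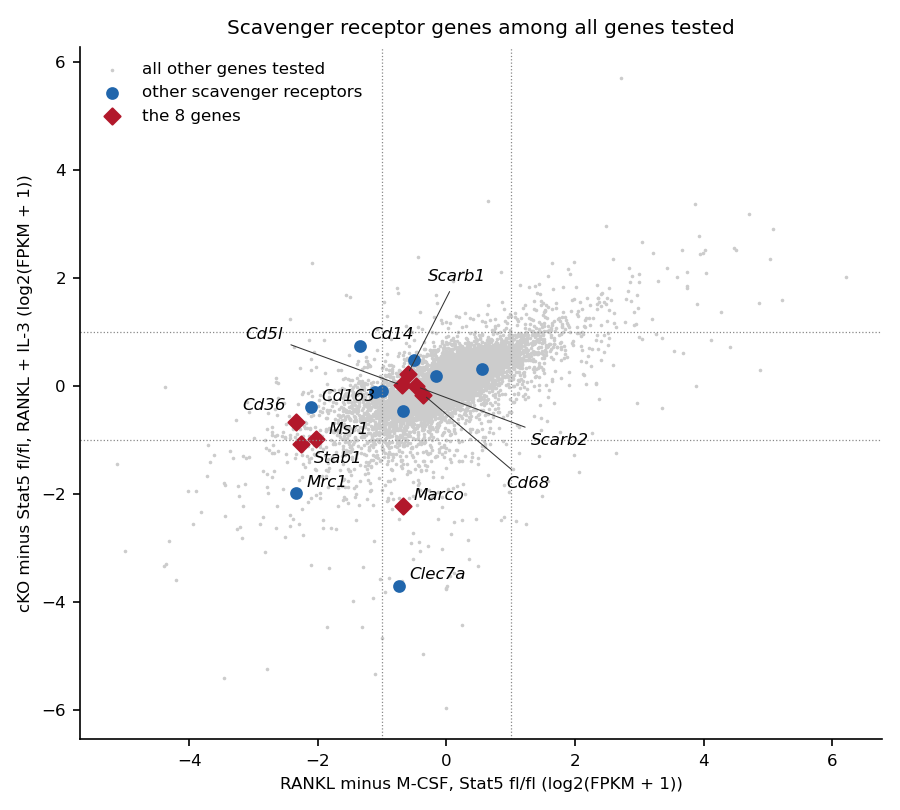
Log2(FPKM + 1) difference between the RANKL and M-CSF libraries (horizontal) and between the cKO and IL-3 libraries (vertical), which share no library, for all genes tested. Red diamonds are the 8 genes, blue points the 10 other scavenger receptors that reached 1 FPKM, and dotted lines mark 2-fold. *Msr1*, *Cd36* and *Stab1* lay together at the left, and *Marco* lay below the bulk of genes with a RANKL difference of only -0.67.

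Genes that handle what these receptors take up were counted from 2 lists. Among all genes tested, 6.88% were lower and 5.44% higher with RANKL than with M-CSF. With IL-3 added 6.11% were higher and 3.47% lower, and in cKO 2.11% were higher and 4.28% lower. The comparisons with IL-3 added and in cKO share the IL-3 library. Of 13 lysosomal genes tested, 6 were lower with RANKL than with M-CSF (*Ctsd*, *Ctsb*, *Psap*, *Hexa*, *Grn* and *Lamp2*) and 0 higher, 2 were higher when IL-3 was added (*Psap* and *Ctsd*), and 1, *Psap*, was lower in cKO. The medians of the log2 ratios were -0.87, 0.52 and -0.44 in these 3 comparisons. Of 17 lipid genes, 4 were lower with RANKL (*Apoe*, *Lipa*, *Nceh1* and *Plin2*) and 2 higher (*Abcg1* and *Acsl1*), 2 were higher with IL-3 added (*Nceh1* and *Fabp4*), and 0 were called either way in cKO. Here the medians were -0.25, 0.36 and -0.27. *Plin2*, which coats lipid droplets, stood at 209 FPKM in the cKO library, 212 in the IL-3 library, 154 in the RANKL library and 408 FPKM in the M-CSF library, and so had the same lowest and highest library as *Cd36*.

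Transcription factors of macrophages and of lipid uptake varied in both directions. Of 18 tested, 6 were lower and 3 higher with RANKL than with M-CSF, 7 higher and 1 lower with IL-3 added, and 5 lower and 0 higher in cKO. The medians were -0.28, 0.47 and -0.22. Of all genes tested, 6.88% were lower and 5.44% higher with RANKL, and 6.11% higher and 3.47% lower with IL-3 added. In cKO 4.28% were lower and 2.11% higher, a comparison that shares the IL-3 library with the one before it. *Maf*, a factor of mature macrophages, stood at 8.05 FPKM in the cKO library, 27.6 in the IL-3 library, 3.58 in the RANKL library and 59.8 FPKM in the M-CSF library. *Pparg*, an activator of *Cd36* in macrophages, had another order of libraries than *Cd36*, at 11.3 FPKM in the cKO library, 6.55 in the IL-3 library, 9.71 in the RANKL library and 10.2 FPKM in the M-CSF library. *Rxra*, like *Maf*, had the order of *Cd36*. It stood at 6.74 FPKM in the cKO library, 19.7 in the IL-3 library, 5.08 in the RANKL library and 20.7 FPKM in the M-CSF library. The part of these factors in the level of *Cd36* was not tested. *Spi1*, the gene of PU.1, was within 2-fold throughout, at 268 to 403 FPKM.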

How the data were processed

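RNA of 4 libraries was sequenced on a HiSeq2000 system. According to the submitters' processing notes, the authors used TopHat2 2.0.13, Cufflinks 2.2.1 and the mm10 build, and deposited 1 table of 33170 transcripts. Its unit is not written in the table. The deposited values were read as FPKM from the software and from their sums of 507691 to 544287 per library.

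Transcripts were summed per gene ID, small RNA genes were left out by symbol (46 reached the minimum), and ratios were taken on the log2(FPKM + 1) scale for the 10763 genes that reached 1 FPKM in any library. The added 1 FPKM understates the change of low genes. Genes 2-fold apart were counted. No further scaling was applied. Over all genes the median log2 ratio was then 0.14 for RANKL against M-CSF, -0.15 for IL-3 added and 0.13 for cKO. Depth was estimated from FPKM times length in single-transcript genes of at least 3000 nt. Between 71.2% and 72.7% of low values lay within 0.2 of a whole step, where even spacing gives 40%. Depths from 20 to 55 M fragments were tried and the best one was used. Multiples of it lay outside this range and were not scored. Counting intervals are therefore approximate, and they leave out variation between cultures and mice. Positions and transcript lengths came from GENCODE M21 on GRCm38, and start-site windows from RefSeq.

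The 8 genes and 20 lists (178 of 179 entries found) were chosen with earlier results of these data known. The rule for naming took up to 4 genes of each list with the largest ratios per comparison, if they reached 5 FPKM, *Stat5a*, *Stat5b* and the 3 genes nearest in profile to each receptor. Others were named with their values seen. Software was Python 3.11.15 with pandas 2.3.3, numpy 2.4.6, matplotlib 3.10.9 and scipy 1.17.1.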

Additional observations from a re-analysis of the deposited data

How the results depend on the processing

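With a pseudocount of 0.1 FPKM, scaling to a common median or upper quartile, minimums of 5 FPKM and of none, and the most abundant transcript per gene, 235 ratios of the 8 genes were recomputed. Of these, 232 kept their side of 2-fold and 0 of the called ones changed sign. Many of them could not change, because a minimum does not enter the ratio of a gene. Nor does the choice of transcript for *Marco*, *Scarb2*, *Stab1* and *Cd5l*, which have a single transcript. The other 3 were *Msr1* in the cKO against the IL-3 library, at -0.97, which was -1.10 with a common median, -1.06 with a common upper quartile and -1.20 for its most abundant transcript, each past 2-fold. With a minimum of 5 FPKM, 0 of the genes were lower in the IL-3 library than with M-CSF, against 1 at the minimum of 1 FPKM, because *Cd5l* was left out. The uncalled ratio of *Scarb1* for IL-3 added to RANKL, -0.04, was 0.11 with a common median. Over all genes, a pseudocount of 0.1 FPKM gave 379 genes higher in cKO (227 at 1 FPKM), 560 lower with IL-3 added to RANKL (373), 416 higher and 273 lower for RANKL and IL-3 against M-CSF (269 and 153), and 187 higher and 103 lower for cKO against RANKL (100 and 38). A common median gave 433 genes higher and 944 lower with RANKL against M-CSF (585 and 740), 824 and 265 with IL-3 added (658 and 373), and 176 and 573 in cKO (227 and 461). No paired analysis was possible because each condition has 1 library, and for the same reason no library could be left out. Depth limits *Cd5l* most, with 93 to 260 fragments per library.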

Other observations

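Transcripts of genes whose products work with CD36 were called in both directions. Of 16 tested, 2 were higher with RANKL than with M-CSF, *Src*, a kinase osteoclasts need for resorption, and *Cav1*, the caveolin gene, and 5 were lower (*Cd81*, *Fcer1g*, *Lyn*, *Tlr4* and *Tlr6*), where 5.44% of all genes were higher and 6.88% lower. With IL-3 added to RANKL 4 were higher (*Cd81*, *Tlr2*, *Tlr4* and *Tlr6*) and 2 lower (*Cav1* and *Src*), against 6.11% and 3.47% of all genes. In cKO 2 were higher (*Cav1* and *Src*) and 2 lower (*Tlr4* and *Tlr6*), against 2.11% and 4.28% of all genes. Both of these comparisons use the IL-3 library. *Src* stood at 15.2 FPKM in the cKO library, 4.55 in the IL-3 library, 37.1 in the RANKL library and 0.32 FPKM in the M-CSF library, the reverse order of *Cd36*. *Cav1* had 36.5 FPKM in the cKO library, 9.41 in the IL-3 library, 63.5 in the RANKL library and 3.85 FPKM in the M-CSF library. The median log2 ratios of these 16 genes were -0.62 with RANKL, 0.38 with IL-3 added and -0.24 in cKO. *Tlr4*, a Toll-like receptor gene whose product forms a complex with that of *Tlr6* and CD36, stood at 12.2 FPKM in the cKO library, 36.1 in the IL-3 library, 7.34 in the RANKL library and 17.8 FPKM in the M-CSF library, so unlike *Cd36* it was highest with IL-3.

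Of 14 ligand genes listed 8 reached 1 FPKM, with median log2 ratios of -0.26 with RANKL, 0.03 with IL-3 added and -0.10 in cKO. At 2-fold 2 were higher and 2 lower with RANKL, 2 higher and 1 lower with IL-3 added, and 1 higher and 2 lower in cKO. Of all genes tested, 5.44% were higher and 6.88% lower with RANKL, and 6.11% higher and 3.47% lower with IL-3 added. In cKO 2.11% were higher and 4.28% lower, a comparison that shares the IL-3 library with the one before it. *Thbs1*, the gene of thrombospondin-1, a ligand of CD36, stood at 32.3 FPKM in the cKO library, 18.6 in the IL-3 library, 47.6 in the RANKL library and 7.49 FPKM in the M-CSF library, again the reverse order of its receptor. *Sparc*, whose product is taken up by stabilin-1, reached at most 0.42 FPKM. *Fn1*, the fibronectin gene, was at 14.0 FPKM in the cKO library, 91.9 in the IL-3 library, 14.7 in the RANKL library and 96.9 FPKM in the M-CSF library. These values come from 1 library per condition and no test was made.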
